A study of Arabidopsis thaliana with 18 samples.

Results

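The response of wild-type Arabidopsis thaliana seedlings to osmotic stress was followed across 4589 genes, the part of a deposited table of 6740 genes whose level reached 5 FPKM or more in the higher of the mannitol and control groups. FPKM counts sequenced fragments per length of transcript and per size of library. The treated group was Col-0 kept for 24 h with 300 mM mannitol, and its control was Col-0 kept for 24 h on medium alone. All seedlings were 9 days old and lay on filter paper, and whole seedlings were extracted, so roots and shoots are mixed in each value. A further 2 comparisons of the same table stand beside the results: Col-0 with 100 µM ABA against the same control, and the pyl duodecuple line, which carries mutations in 12 PYR/PYL receptor genes in the Col-0 background, with mannitol against its own control. There were 3 samples in each of 6 groups, hence 18, but the table gives 1 value per group. No value here therefore has a replicate error, no test could be run on a gene, and sequencing depth is unknown. A rise or a fall below means that the authors' deposited table called the gene changed, and every log2 ratio is that of mannitol over control after 1 FPKM was added to each value, which understates the change of low genes.

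Mannitol is a sugar alcohol that lowers the water potential around a plant without being quickly used by it, so that water leaves the cells, turgor falls and growth slows. Plants answer a water deficit partly through the hormone abscisic acid (ABA): PYR/PYL receptors that have bound ABA hold clade A PP2C phosphatases, SnRK2 kinases are then free to act, and transcription factors switch on genes for protective proteins. Other parts of the answer, among them changes in osmolytes, in ethylene and jasmonate signalling and in growth, can run beside that route.

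The authors' deposited table called 1755 of the 4589 genes higher under mannitol (38.2%) and 1739 lower (37.9%), in all 76.1%, and left 1095 uncalled. These shares are high, and each count of a gene group below is to be read against them. The table appears to hold only genes called in at least 1 of 4 comparisons. That rule was not checked, since not all 4 sets of calls were read here. The median log2 ratio was 1.47 among the risen genes and -1.37 among the fallen genes, and it was -0.01 over all 4589. By ratio alone, 1618 genes were at least 2-fold higher (35.3%) and 1537 at least 2-fold lower (33.5%). Large rises outnumbered large falls: 178 called genes had a log2 ratio of 3 or more and 63 had -3 or less. The risen genes spanned log2 ratios of 0.78 to 8.09 and the fallen genes -4.95 to -0.79. Of the 2151 genes under the 5 FPKM minimum, which were left out, 475 were called higher and 640 lower.

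**Figure D1:**
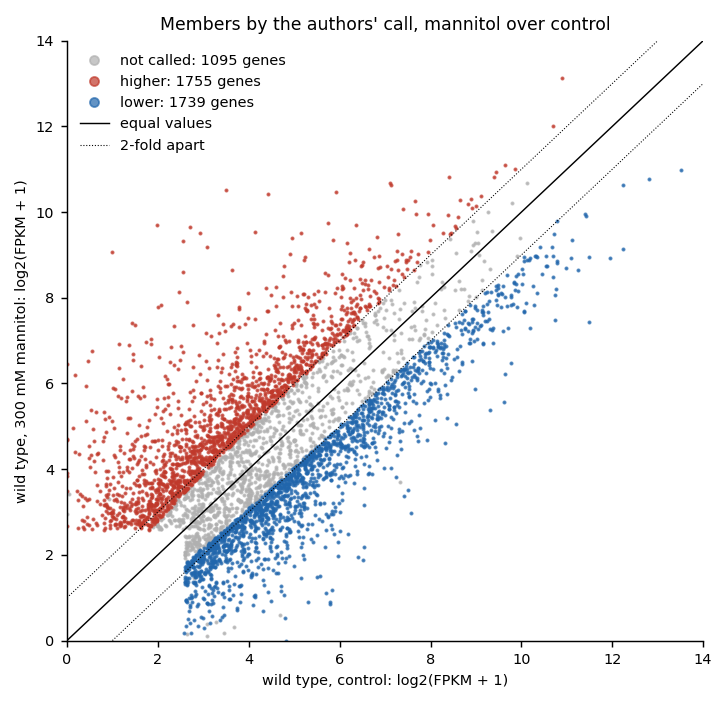
Each point is 1 of the 4589 genes, with its log2(FPKM + 1) in the wild type under mannitol on the vertical axis and in control on the horizontal axis, coloured by the authors' call. The 1755 called higher and the 1739 called lower lie on both sides of the line of equal values, and 26 genes reached 1000 FPKM under mannitol, against 50 in control.

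The reference point of these ratios matters for the falls. Of 10 genes commonly used as references in this species, the table holds 2, the actin gene ACT2 (AT3G18780) and the tubulin gene TUB4 (AT5G44340), and both fell. ACT2 had 274 FPKM under mannitol and 588 in control, and TUB4 had 129 under mannitol and 265 in control. Adding their median shift of 1.07 to every log2 ratio left 2324 genes at least 2-fold higher and 308 at least 2-fold lower, so that 88.3% of the genes 2-fold apart were higher, against 51.3% with the ratios as deposited. The 8 other reference genes are not among the genes analysed here. Since genes appear to be listed only when called somewhere, and both of these were called, these 2 are no fair sample of stable genes. Directions that turn round under this shift are named where they occur.

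Genes on either side of the 5 FPKM limit show what the filter did. Just inside it stood CRK36 (AT4G04490), a receptor-like kinase, at 5.02 FPKM under mannitol and 0.748 in control, AT1G35180 at 1.69 under mannitol and 5.01 in control, and CYP735A2 (AT1G67110), an enzyme that makes trans-zeatin cytokinins, at 0.133 under mannitol and 5.0013 in control. Just outside it stood ESK1 (AT3G55990) at 2.39 FPKM under mannitol and 4.9996 in control, AGG3 (AT5G20635) at 1.71 under mannitol and 4.9986 in control, and CNGC15 (AT2G28260) at 2.28 under mannitol and 4.9985 in control.

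Markers of cell types were read because whole seedlings hold many tissues, and a lower level can come from fewer cells of a type or from less RNA per cell, which cannot be told apart here. All 8 leaf mesophyll markers fell, and their summed level was 4242 FPKM under mannitol and 24127 in control. These 8 are all photosynthesis genes, so they do not show mesophyll cells apart from photosynthesis. The counts here are of markers found in the table. Of the 8 markers of root stele and cortex 7 fell, with a sum of 53.4 FPKM under mannitol and 385 in control, and of 7 root endodermis markers 3 fell, with a sum of 55.0 under mannitol and 92.9 in control. Root hair markers went the other way: 7 of 10 rose and none fell, and their sum was 139 FPKM under mannitol and 52.6 in control. Leaf epidermis markers fell in 3 of 4 cases. Of 5 guard cell markers 2 rose and 1 fell, GC1 (AT1G22690), which had 24.6 FPKM under mannitol and 240 in control. Of the seed storage genes the table held 2, both low and without a call. No marker in the table was listed at 0. Shoot and root markers were present in both groups, and their part in the results below was not tested.

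Several of the genes with the largest rises belonged to a few kinds, and others had separate roles. SAG29 (AT5G13170), which is the sugar exporter SWEET15 and a senescence marker, had 540 FPKM under mannitol and 0.981 in control, and its log2 ratio of 8.09 was the highest of the 4589. Lipid-transfer proteins, small secreted proteins that carry lipids to the plant surface, were also among them: LTP4 (AT5G59310) had 836 FPKM under mannitol and 2.93 in control, and LTP3 (AT5G59320) had 579 under mannitol and 7.46 in control. AT2G37870, of the same superfamily, had 727 FPKM under mannitol and 6.57 in control. In control all 4 of these genes were near or under the limit of the filter, and under mannitol they were among the abundant transcripts of the table.

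Late embryogenesis abundant (LEA) proteins, which protect other proteins and membranes in drying seeds and leaves, formed the second kind. AT3G02480 had 1462 FPKM under mannitol and 10.3 in control, AT3G17520 had 218 under mannitol and 3.02 in control, and outside that family TSPO (AT2G47770), a membrane protein that stress induces for a short time, had 170 under mannitol and 1.71 in control. ELIP1 (AT3G22840), a chlorophyll-binding protein made in excess light, had 641 FPKM under mannitol and 4.89 in control, which sets it apart from the antenna proteins described below.

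Other large rises had different roles. CCD8 (AT4G32810), a carotenoid cleavage enzyme of strigolactone synthesis, had 107 FPKM under mannitol and 0.462 in control. THI2.1 (AT1G72260), an antimicrobial thionin, had 91.1 FPKM under mannitol and 0.377 in control, and 0.777 under ABA without a call. The chitinase gene AT2G43570 had 386 FPKM under mannitol and 4.83 in control, and 34.2 under ABA. The cellulose synthase-like gene CSLG2 (AT4G24000) had 72.7 FPKM under mannitol and 0.134 in control. MT1B (AT5G56795), a metal-binding metallothionein, had 86.6 FPKM under mannitol and was listed at 0 in control, so no fold is given. AT2G41190, from a family of amino acid transporters, had 227 under mannitol and 3.21 in control, and AT4G12580, which has no description, had 279 under mannitol and 4.50 in control.

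By amount of transcript rather than ratio, the largest gain was that of the metallothionein MT2A (AT3G09390), with 8895 FPKM under mannitol and 1901 in control. The glycine-rich protein GRP-3 (AT2G05520) had 4127 FPKM under mannitol and 1652 in control, and AT2G05510, of the same family, had 1806 under mannitol and 340 in control. The trypsin inhibitor TI1 (AT2G43510) had 1595 FPKM under mannitol and 140 in control, and CCL (AT3G26740), a transcript whose decay the clock controls, had 2204 under mannitol and 802 in control.

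The largest falls included 4 plant defensins of the PDF1 group, secreted antifungal peptides that jasmonate and ethylene together induce. PDF1.3 (AT2G26010) had 0.792 FPKM under mannitol and 54.5 in control, with a log2 ratio of -4.95, the lowest of the 4589. PDF1.2 (AT5G44420) had 3.58 FPKM under mannitol and 91.3 in control, PDF1.2c (AT5G44430) had 1.78 under mannitol and 44.7 in control, and PDF1.2b (AT2G26020) was listed at 0 under mannitol and had 27.2 in control. Close copies such as these share reads, and how the authors divided them is not given in the sources used here, so the value of each single copy is uncertain.

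Several small lipid-transfer-like proteins were also among the largest falls, in contrast to LTP3 and LTP4. AT5G46890 had 0.862 FPKM under mannitol and 54.4 in control, its near neighbour AT5G46900 had 1.15 under mannitol and 51 in control, AT4G12545 had 2.69 under mannitol and 90.8 in control, and AT4G12510 had 0.438 under mannitol and 26.8 in control. AT2G10940, of the same superfamily, had 46.1 FPKM under mannitol and 785 in control. HBI1 (AT2G18300), a bHLH factor that promotes cell elongation, had 2.87 FPKM under mannitol and 83.8 in control. XTH6 (AT5G65730), a wall-loosening enzyme, had 9.40 FPKM under mannitol, 171 in control and 233 under ABA, where it was not called. CYP705A5 (AT5G47990), a P450 of the root thalianol pathway, had 10.4 FPKM under mannitol and 181 in control, and it is also among the stele and cortex markers that fell. Of those for which no role is given here, AT2G27402 had 1.26 FPKM under mannitol and 55.8 in control, AT5G01015 had 0.859 under mannitol and 38.8 in control, RL4 (AT2G18328) had 1.84 under mannitol and 46.5 in control, and AT1G14960 had 2.96 under mannitol and 61.9 in control.

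**Figure D2:**
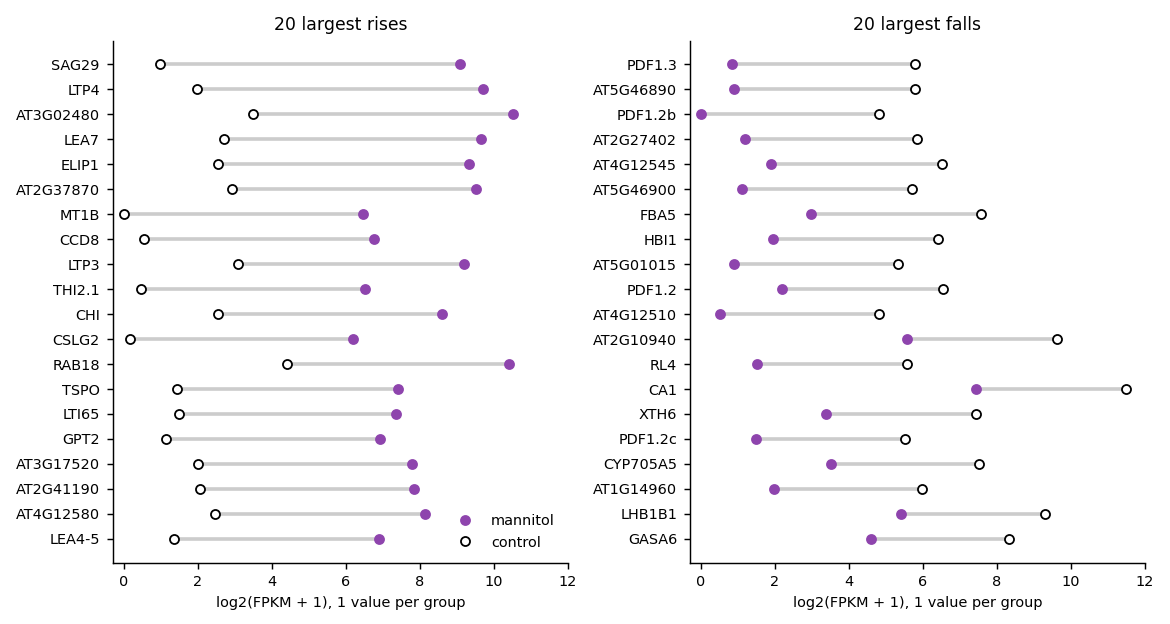
The 20 called genes with the largest positive (left) and negative (right) log2 ratios are drawn with their log2(FPKM + 1) under mannitol (filled) and in control (open), 1 value per group. SAG29 stands at 540 FPKM under mannitol and 0.981 in control, and PDF1.3 at 0.792 under mannitol and 54.5 in control.

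DNA just before the gene starts was read for the sites of 3 groups of factors. The ABA-responsive element, bound by bZIP factors that SnRK2 kinases activate, has the core ACGTG. The dehydration-responsive element, bound by DREB factors, has the core CCGAC. WRKY factors of defence bind a W-box, searched here as TTGACC or TTGACT. The windows below, read 5′ to 3′ on the strand of the gene from the RefSeq sequence and gene models of TAIR10.1, are the 250 bases before the starts of the 4 genes of the LEA and dehydration list with the largest rises whose window overlaps no other annotated gene. They are shown because these genes are among the largest rises of the whole response. Capitals mark ACGTG on either strand, and a palindromic CACGTG holds a match on each strand.
AT3G02480 (chr3:511970-512219, plus strand): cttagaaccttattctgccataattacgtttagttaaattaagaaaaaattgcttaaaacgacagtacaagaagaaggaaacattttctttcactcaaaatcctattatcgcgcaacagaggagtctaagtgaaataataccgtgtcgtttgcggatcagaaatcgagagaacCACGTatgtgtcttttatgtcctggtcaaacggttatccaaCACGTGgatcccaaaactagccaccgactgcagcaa
LEA7 (chr1:19619474-19619723, plus strand): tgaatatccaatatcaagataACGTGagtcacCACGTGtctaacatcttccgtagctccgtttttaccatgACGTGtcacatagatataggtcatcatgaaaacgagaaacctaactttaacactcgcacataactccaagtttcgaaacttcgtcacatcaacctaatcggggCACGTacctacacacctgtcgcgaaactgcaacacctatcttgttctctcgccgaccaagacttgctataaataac
LTI65 (chr5:21236771-21237020, plus strand): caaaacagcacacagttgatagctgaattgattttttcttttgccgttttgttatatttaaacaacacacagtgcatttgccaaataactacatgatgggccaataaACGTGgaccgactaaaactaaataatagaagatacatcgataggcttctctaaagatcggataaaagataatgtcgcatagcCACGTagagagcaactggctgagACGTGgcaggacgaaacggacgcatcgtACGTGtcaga
LEA4-5 (chr5:2090431-2090680, minus strand): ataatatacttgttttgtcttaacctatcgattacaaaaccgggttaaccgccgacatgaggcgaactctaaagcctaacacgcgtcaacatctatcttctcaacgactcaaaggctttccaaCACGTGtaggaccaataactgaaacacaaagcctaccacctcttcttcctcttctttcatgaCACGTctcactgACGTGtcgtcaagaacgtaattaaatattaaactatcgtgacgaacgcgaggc

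The window of AT3G02480 held 3 matches to ACGTG, that of LEA7 (AT1G52690) 5, and those of LTI65 (AT5G52300, also known as RD29B) and LEA4-5 (AT5G06760) 4 each. Each of the 4 windows held 1 match to CCGAC. LTI65 had 163 FPKM under mannitol and 1.82 in control, LEA4-5 had 118 under mannitol and 1.58 in control, and LEA7 had 798 under mannitol and 5.52 in control. LEA7 overlaps AT1G52695 on the other strand, and its value is uncertain for that reason.

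ACGTG on either strand was in 36.0% of 1720 windows of risen genes, 24.8% of 1707 of fallen genes and 28.9% of 1077 of uncalled genes, against 22.9% of all 27443 gene windows of the same length. The share was 48.5% among 99 windows of the 100 largest rises and 30.0% among those of the 100 largest falls. In the LEA and dehydration list 13 of 18 windows held it (72.2%), in the stress transcription factor list 8 of 14 (57.1%), in the jasmonate list 12 of 20 (60%) and in the clock list 7 of 7. Lists in which most genes fell lay on both sides of the share of all windows, with 7 of 17 in the light harvesting list and in the expansin list (41.2% each), 8 of 21 in the photosystem list (38.1%) and 1 of 15 in the aquaporin list (6.67%). CCGAC was in 14.4% of windows of risen genes, 11.5% of fallen genes, 11.1% of uncalled genes and 12% of all windows, and in 8 of 18 of the LEA list (44.4%). The W-box was in 31.7% of windows of risen genes, 25.1% of fallen genes, 31.4% of uncalled genes and 28.4% of all windows. It was in 10 of 17 windows of the redox list (58.8%) and in 4 of 14 of the salicylate and immunity list (28.6%). Matches to the 3 motifs may overlap each other and were counted apart. A match is a string of letters and does not show that a factor is bound there.

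**Figure D3:**
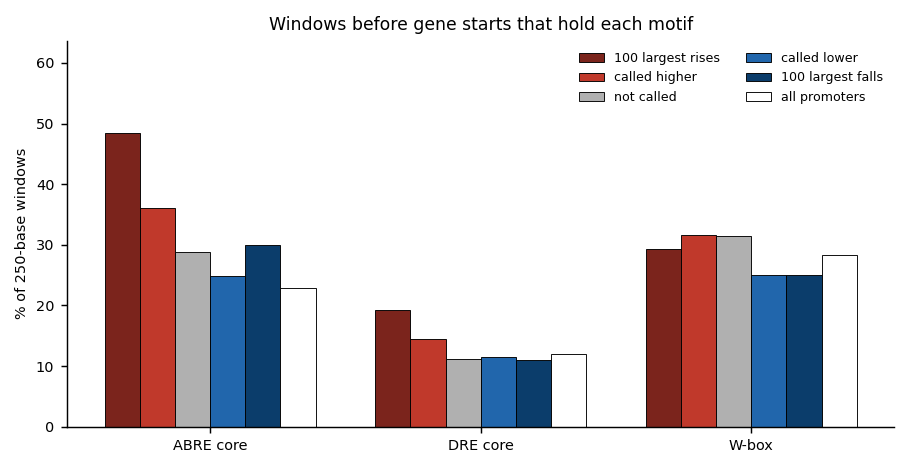
Bars give the share (%) of 250-base windows before gene starts that hold each motif on either strand, for the 100 largest rises, all genes called higher, genes not called, genes called lower, the 100 largest falls and all annotated genes. The ABA-responsive element core stands at 48.5% for the 100 largest rises and 22.9% for all genes.

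Gene lists for the pathways of a water deficit hold 700 genes in 44 lists. Of these 481 were in the table, 422 reached 5 FPKM, 203 rose and 137 fell. Counts below run over the genes that reached 5 FPKM, and some genes stand in 2 lists. A gene under 5 FPKM in control entered these counts only by being higher under mannitol, and the converse held for falls. Values under ABA and in the duodecuple line played no part in this limit. Among the 282 genes named by rule, 60 overlap another annotated gene, among them RAB18, ABI1, P5CS1, CAB1, PSBR, RCA, CA1 and FBA5, and since the strand of counting is not given in the sources used here, their values may hold reads of the neighbour.

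**Figure D4:**
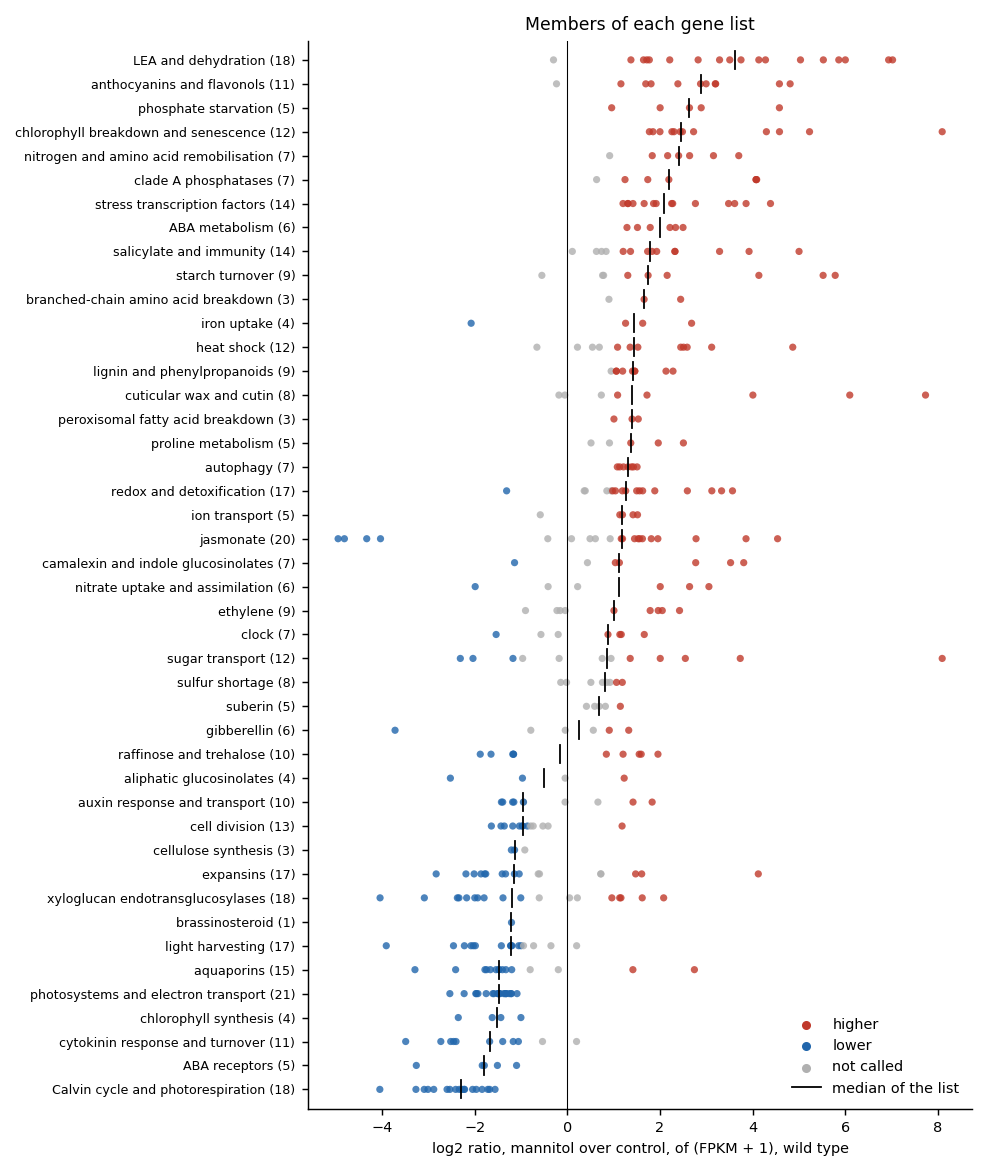
Each point is a gene of a list, placed by its log2 ratio of mannitol over control in the wild type and coloured by the authors' call, with the number of genes in brackets and a black bar at the list median. Medians run from 3.63 for LEA and dehydration genes to -2.31 for the Calvin cycle and photorespiration, and centring on the 2 reference genes would move every point to the right by 1.07.

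Dehydration and ABA pathway genes mostly rose. In the LEA and dehydration list 17 of 18 genes rose (median 3.63), and the list had a summed level of 8339 FPKM under mannitol and 875 in control. The dehydrin RAB18 (AT5G66400) had 1368 FPKM under mannitol and 20.4 in control, and RD20 (AT2G33380), a caleosin of lipid droplets, had 403 under mannitol and 11.3 in control. Of 7 clade A phosphatases 6 rose (median 2.19). Among these, HAI1, HAI2 and HAI3 were under 5 FPKM in control and passed the limit only through their mannitol values. HAI1 (AT5G59220) had 85.8 FPKM under mannitol and 4.15 in control, HAI2 (AT1G07430) had 22.4 under mannitol and 0.392 in control, and HAI3 (AT2G29380) had 19.4 under mannitol and 0.200 in control. With 1 FPKM added their log2 ratios were 4.08, 4.07 and 4.09, while the authors' deposited table, with nothing added, gives 4.37 for HAI1, 5.84 for HAI2 and 6.60 for HAI3. ABI2 (AT5G57050) had 33.4 FPKM under mannitol and 6.53 in control, ABI1 (AT4G26080) had 114 under mannitol and 33.6 in control, and PP2CA (AT3G11410) had 127 under mannitol and 53.2 in control. HAB1 (AT1G72770) had 55.2 FPKM under mannitol and 35.3 in control and was not called.

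Receptor genes went the other way: of 9 in the list 5 were in the table, and all 5 fell (median -1.79). Receptors outside the table could not be read. PYL6 (AT2G40330) had 0.785 FPKM under mannitol and 16.1 in control, PYL4 (AT2G38310) had 50.3 under mannitol and 183 in control, PYL5 (AT5G05440) had 25.4 under mannitol and 90.6 in control, RCAR3 (AT5G53160, also PYL8) had 78.3 under mannitol and 225 in control, and PYR1 (AT4G17870) had 80.1 under mannitol and 173 in control. Genes of ABA synthesis, breakdown and release from its sugar conjugate rose in all 6 cases that reached 5 FPKM (median 2.00), of 7 in the table and 12 in the list. Of these 6, NCED3 and CYP707A4 passed the 5 FPKM limit only through their mannitol values. BGLU18 (AT1G52400), which frees ABA from its glucose ester, made most of their sum, with 567 FPKM under mannitol and 99.6 in control, and 150 under ABA without a call. NCED3 (AT3G14440), the enzyme that limits ABA synthesis, had 7.50 FPKM under mannitol and 1.46 in control, AAO3 (AT2G27150), of its last step, had 20.8 under mannitol and 6.63 in control, and the breakdown enzyme CYP707A4 (AT3G19270) had 5.53 under mannitol and 0.406 in control.

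All 14 listed stress transcription factors that reached 5 FPKM, of 15 in the table and 26 in the list, rose (median 2.08). Among them NAC019 and MYB2 were under 5 FPKM in control and passed the limit only through their mannitol values. NAC019 (AT1G52890), a NAC factor of ABA and jasmonate responses, had 55.5 FPKM under mannitol and 1.7 in control. The homeodomain factors HB-7 (AT2G46680) and HB-12 (AT3G61890) had 300 and 167 FPKM under mannitol, against 19.7 and 14.1 in control. MYB2 (AT2G47190) had 17 FPKM under mannitol and 0.502 in control, and Rap2.6L (AT5G13330), an ERF factor, had 82.1 under mannitol and 11.2 in control.

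Starch genes mostly rose, while sugar transporters and sugar osmolyte genes were split. Of 9 starch genes 6 rose and none fell (median 1.74). GPT2 (AT1G61800), which brings glucose phosphate into plastids, had 120 FPKM under mannitol, 1.2 in control and 8.90 under ABA. APL3 (AT4G39210), a subunit of the enzyme that commits glucose to starch, had 145 FPKM under mannitol and 7.29 in control, and the starch synthase GBSS1 (AT1G32900) had 51.7 under mannitol and 10.8 in control. Enzymes that break starch down rose too: AMY1 (AT4G25000), an amylase that acts outside the plastid, had 60 FPKM under mannitol and 0.327 in control, and the beta-amylase BAM1 (AT3G23920) had 115 under mannitol and 33.8 in control.

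Among 12 sugar transporters 5 rose and 3 fell (median 0.85). SWEET4 (AT3G28007) had 62.3 FPKM under mannitol and 3.76 in control, and MSS1 (AT5G26340), the hexose importer STP13, had 109 under mannitol and 17.8 in control. PMT5 (AT3G18830), which carries sugar alcohols and other polyols, had 170 FPKM under mannitol, 41.6 in control and 58.9 under ABA without a call. STP1 (AT1G11260), a hexose importer of high affinity, had 45.5 FPKM under mannitol and 230 in control, and the vacuolar SWEET16 (AT3G16690) had 2.36 under mannitol and 12.8 in control.

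In the raffinose and trehalose list 5 of 10 genes rose and 5 fell, with a median of -0.16 that became 0.91 with ratios centred on the reference genes. The galactinol synthases, which start raffinose synthesis, were on the risen side, with GolS2 (AT1G56600) at 7.73 FPKM under mannitol and 1.25 in control and GolS4 (AT1G60470) at 33.8 under mannitol and 10.5 in control. SIP2 (AT3G57520), a raffinose-cleaving galactosidase, had 980 FPKM under mannitol and 334 in control. Trehalose phosphate synthase-like genes were on the fallen side, with TPS11 (AT2G18700) at 13.7 FPKM under mannitol and 53.3 in control and TPS8 (AT1G70290) at 24.8 under mannitol and 79.9 in control.

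Proline, the main free amino acid of osmotic stress, is made from glutamate and broken down in mitochondria. The synthesis gene P5CS1 (AT2G39800) had 215 FPKM under mannitol and 37.0 in control. A pair of breakdown enzymes also rose, AT5G38710, a proline dehydrogenase copy, at 14.1 FPKM under mannitol and 2.88 in control, and ALDH12A1 (AT5G62530) at 85.6 under mannitol and 32.6 in control. ERD5 (AT3G30775), the main proline dehydrogenase, had 374 FPKM under mannitol and 262 in control without a call, and in the duodecuple line it fell, with 47.8 under mannitol and 227 in control.

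Genes for recovering nitrogen and carbon from existing tissue mostly rose among those that reached 5 FPKM. All 12 genes of chlorophyll breakdown and senescence that reached 5 FPKM, of 16 in the list, rose (median 2.46). Their sum was 1792 FPKM under mannitol and 209 in control. Among the 12, SAG29, DIN2, NAP and AT4G11910 were under 5 FPKM in control and passed the limit only through their mannitol values. DIN2 (AT3G60140), a beta-glucosidase induced in the dark, had 81.8 FPKM under mannitol and 1.21 in control. SAG13 (AT2G29350) had 163 under mannitol and 5.84 in control, and NAP (AT1G69490), a NAC factor that drives leaf senescence, had 29.0 under mannitol and 4.35 in control. ACD1 (AT3G44880), the oxygenase that opens the chlorophyll ring, had 224 FPKM under mannitol and 33.0 in control, and AT4G11910, a relative of the STAY-GREEN proteins, had 47.6 under mannitol and 1.47 in control.

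Of 7 nitrogen and amino acid remobilisation genes 6 rose (median 2.4). AT4G33150, the lysine-degrading enzyme LKR/SDH, had 491 FPKM under mannitol and 36.8 in control. The amino acid importers AAP1 (AT1G58360) and LHT1 (AT5G40780) had 284 and 48.5 FPKM under mannitol, against 44.7 and 8.36 in control, and LHT1 was at 6.90 under ABA. The cytosolic glutamine synthetase AT5G37600 had 295 FPKM under mannitol and 65.0 in control. All 7 autophagy genes in the table, of 14 in the list, rose by similar amounts, with log2 ratios of 1.08 to 1.5. Among them was APG8A (AT4G21980), whose product coats autophagosome membranes, at 216 FPKM under mannitol and 75.6 in control. For branched-chain amino acid breakdown the table held 3 of 12 listed genes and 2 rose, with BCAT-2 (AT1G10070) at 36.9 FPKM under mannitol and 5.95 in control. All 3 peroxisomal fatty acid breakdown genes that reached 5 FPKM, of 5 in the table and 12 in the list, rose. The thiolase PKT3 (AT2G33150) had 406 FPKM under mannitol and 140 in control.

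Genes of the phenylpropanoid route, which leads from phenylalanine to lignin and to flavonoid pigments, mostly rose, at its shared steps and in both branches. Of 9 lignin and phenylpropanoid genes 8 rose (median 1.41), from C4H (AT2G30490) at 497 FPKM under mannitol and 187 in control to CAD5 (AT4G34230), a last step of lignin monomer synthesis, at 299 under mannitol and 60.8 in control. Of 11 anthocyanin and flavonol genes 10 rose (median 2.88). The MYB factors that switch on anthocyanin genes rose most: MYB90 (AT1G66390) had 29.9 FPKM under mannitol and 0.103 in control, and PAP1 (AT1G56650) had 50.9 under mannitol and 1.17 in control. Their target enzymes LDOX (AT4G22880) and DFR (AT5G42800) had 222 and 271 FPKM under mannitol, against 23.3 and 36.1 in control, and GSTF12 (AT5G17220), which helps to move the pigment into the vacuole, had 280 under mannitol and 29.7 in control.

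For the plant surface, 5 of 8 wax and cutin genes rose (median 1.4), a list that holds LTP3 and LTP4. LTP2 (AT2G38530) had 854 FPKM under mannitol and 52.2 in control, and the elongase KCS2 (AT1G04220) had 34.9 under mannitol and 9.92 in control. Of 5 suberin genes 1 rose, FAR1 (AT5G22500), with 37.5 FPKM under mannitol and 16.4 in control. The other 4 suberin genes had log2 ratios of 0.41 to 0.82 without a call, and 3 of those 4 rose under ABA, where 21.0% of all 4589 genes were called higher and 22.4% lower.

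The largest losses in amount of transcript were mainly those of photosynthesis genes. The 10 called genes with the largest loss of FPKM summed to 9428 FPKM under mannitol and 46125 in control, and all but 1 of them, AT2G45180 of the lipid-transfer superfamily, act in chloroplasts. All 21 genes of the photosystems and electron transport fell within a narrow range of log2 ratios, -2.54 to -1.09 (median -1.48). Plastocyanin DRT112 (AT1G20340) had 491 FPKM under mannitol and 2858 in control, PSBR (AT1G79040) had 1576 under mannitol and 4815 in control, and PSBO1 (AT5G66570), of the oxygen-evolving complex, had 992 under mannitol and 2714 in control. Under ABA none of these 21 was called.

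All 18 genes of the Calvin cycle and photorespiration fell as well, and further (median -2.31). The small subunit of Rubisco, the enzyme that fixes carbon dioxide, had 2027 FPKM under mannitol and 11770 in control from RBCS1A (AT1G67090), 567 under mannitol and 4845 in control from RBCS3B (AT5G38410), and 399 under mannitol and 2420 in control from RBCS2B (AT5G38420), copies that share reads. Rubisco activase RCA (AT2G39730) had 489 FPKM under mannitol and 3949 in control. The carbonic anhydrase CA1 (AT3G01500) had 171 FPKM under mannitol and 2850 in control, and CA2 (AT5G14740) had 176 under mannitol and 1711.5 in control. FBA5 (AT4G26530), an aldolase and one of the largest falls, had 6.81 FPKM under mannitol and 188 in control.

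The antenna was more mixed, with 13 of 17 light-harvesting genes lower and 4 not called (median -1.22). LHB1B1 (AT2G34430) had 41.0 FPKM under mannitol and 631 in control, CAB1 (AT1G29930) had 1753 under mannitol and 7171 in control, and LHCB5 (AT4G10340) had 356 under mannitol and 1666 in control. All 4 chlorophyll synthesis genes that reached 5 FPKM, from a list of 10, fell, with CHLM (AT4G25080) at 55.3 FPKM under mannitol and 287 in control. These lists moved with the leaf mesophyll markers, but all 8 of those markers are photosynthesis genes themselves, and RCA and CA1 stand in both. The markers therefore give no view of mesophyll cells separate from these lists.

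Water channels and growth genes mostly fell. Of 15 aquaporins 11 fell and 2 rose (median -1.48), with a sum of 1458 FPKM under mannitol and 4200 in control. DELTA-TIP (AT3G16240), a channel of the vacuole membrane, had 88.1 FPKM under mannitol and 872 in control, TIP2;2 (AT4G17340) had 43.8 under mannitol and 153 in control, and the plasma membrane channel PIP2;4 (AT5G60660) had 3.53 under mannitol and 23.2 in control. The 2 that rose were NIP5;1 (AT4G10380), which imports boric acid, with 87.1 FPKM under mannitol, 12.2 in control and 5.03 under ABA, where it fell, and PIP2;5 (AT3G54820), named after its values were seen, with 28.3 under mannitol and 9.985 in control.

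Among expansins, which loosen walls, 10 of 17 fell and 3 rose (median -1.14). EXPB3 (AT4G28250) had 6.47 FPKM under mannitol and 52.3 in control, and EXPA5 (AT3G29030) had 2.61 under mannitol and 15.5 in control. EXLB1 (AT4G17030), an expansin-like gene, had 520 FPKM under mannitol and 28.9 in control, which lifted the list's sum to 847 FPKM under mannitol and 527 in control although its median was below zero. Of 18 xyloglucan endotransglucosylases, which cut and rejoin wall polymers, 10 fell and 5 rose (median -1.20). XTH9 (AT4G03210) had 61.6 FPKM under mannitol, 316 in control and 419 under ABA, and XTH16 (AT3G23730) had 26.3 under mannitol, 122 in control and 186 under ABA. Of 3 cellulose synthesis genes that reached 5 FPKM, from a list of 13, 2 fell, with POM1 (AT1G05850) at 122 FPKM under mannitol and 284 in control.

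Of 13 cell division genes 8 fell and 1 rose, with a median of -0.97 that became 0.10 with ratios centred on the reference genes. The cyclin CYCD3;1 (AT4G34160) had 8.43 FPKM under mannitol and 28.4 in control, CDC20.1 (AT4G33270), an activator of mitotic exit, had 5.92 under mannitol and 16.8 in control, and the risen gene was ICK1 (AT2G23430), an inhibitor of cyclin-dependent kinases, with 44.8 under mannitol and 19.2 in control.

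Hormone pathways differed in direction. For cytokinin, which promotes division, 9 of 11 genes fell and none rose (median -1.68). The type-A response regulators, which cytokinin itself induces, led this: ARR7 (AT1G19050) had 3.58 FPKM under mannitol and 50.5 in control, ARR4 (AT1G10470) had 14 under mannitol and 98.5 in control, and ARR6 (AT5G62920) had 4.88 under mannitol and 32.7 in control. For auxin 5 of 10 genes fell and 2 rose, with a median of -0.95 that became 0.12 with ratios centred on the reference genes. The efflux carrier PIN4 (AT2G01420) had 20.5 FPKM under mannitol and 55.7 in control, whereas WES1 (AT4G27260), which couples auxin to amino acids, had 42.4 under mannitol and 11.2 in control. In the gibberellin list 2 of 6 genes rose and 1 fell, and the median of 0.26 became -0.40 with a limit of 1 FPKM and -0.046 with none. XERICO (AT2G04240) had 72.0 FPKM under mannitol and 28.1 in control, and GASA6 (AT1G74670), a gibberellin-regulated peptide, had 23.3 under mannitol and 319 in control. DWF1 (AT3G19820), the 1 brassinosteroid gene of the list that reached 5 FPKM, had 94.5 FPKM under mannitol and 220 in control and fell.

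Ethylene, jasmonate and salicylate lists had positive medians under mannitol and negative medians under ABA, both against the same control. The 5 FPKM limit took no account of ABA values, so it may add to this contrast. Among the genes named below, ACS2, CYP94B3, PR1, PR5, SARD1 and CYP71A12 were under 5 FPKM in control. They passed the limit only through their mannitol values. Of 9 ethylene genes 5 rose and none fell (median 1.00, and -0.65 under ABA). The synthesis gene ACS2 (AT1G01480) had 7.29 FPKM under mannitol, 1.00 in control and 3.44 under ABA, where it also rose. The response factor ERF2 (AT5G47220) had 60.8 under mannitol, 10.5 in control and 8.58 under ABA. Of 20 jasmonate genes 11 rose and 4 fell (median 1.18, and -0.35 under ABA), and the 4 that fell were the PDF1 defensins. CORI3 (AT4G23600), a wound-induced lyase, had 1416 FPKM under mannitol, 60 in control and 584 under ABA. CYP94B3 (AT3G48520), which inactivates the hormone, had 35.6 under mannitol, 1.53 in control and 50.1 under ABA. Against the sign of the list median, both of these genes were called higher under ABA too.

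Of 14 salicylate and immunity genes 10 rose and none fell (median 1.78, and -0.30 under ABA). PR1 (AT2G14610), an antimicrobial marker of salicylate, had 44.4 FPKM under mannitol, 3.65 in control and 35.9 under ABA. PR5 (AT1G75040) had 162 FPKM under mannitol, 4.09 in control and 3.41 under ABA, and SARD1 (AT1G73805), an activator of salicylate synthesis, had 15.6 under mannitol, 2.33 in control and 2.35 under ABA. Camalexin is an indole phytoalexin, and a joint list of camalexin and indole glucosinolate genes behaved likewise, with 5 of 7 risen and 1 fallen. CYP71A12 (AT2G30750) had 35.6 FPKM under mannitol, 1.62 in control and 1.31 under ABA, while IGMT1 (AT1G21100), a methyltransferase of indole glucosinolates, fell to 20.7 under mannitol, against 46.9 in control. In the aliphatic glucosinolate list 1 of 4 genes rose and 2 fell, with a median of -0.51 that became 0.56 with ratios centred on the reference genes. IMS2 (AT5G23020), which extends the side chain, had 3.90 FPKM under mannitol and 27.2 in control.

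Mineral nutrition genes were represented by fewer genes. All 5 phosphate starvation genes that reached 5 FPKM, of 11 in the table and 20 in the list, rose (median 2.64). Of these 5, PS2 (AT1G73010) and RNS1 were under 5 FPKM in control and passed the limit only through their mannitol values. RNS1 (AT2G02990), a ribonuclease, had 115 FPKM under mannitol and 3.87 in control, and SPX1 (AT5G20150), a phosphate sensor, had 39.8 under mannitol, 9.17 in control and 9.91 under ABA. Of 6 nitrate genes 3 rose and 1 fell (median 1.11). NRT1.8 (AT4G21680), which takes nitrate back from the xylem, had 56.2 FPKM under mannitol and 5.88 in control, NRT1.7 (AT1G69870), which moves it out of old leaves, had 269 under mannitol and 42.4 in control, and the ammonium importer AMT1;2 (AT1G64780) had 2.69 under mannitol and 13.7 in control. Of 8 sulfur shortage genes 2 rose (median 0.80), LSU2 (AT5G24660) with 68.2 FPKM under mannitol and 29.4 in control and APR1 (AT4G04610) with 102 under mannitol and 48.2 in control.

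Of 4 iron genes 3 rose and 1 fell. FER1 (AT5G01600), the iron storage protein ferritin, had 1073 FPKM under mannitol and 166 in control, and NAS4 (AT1G56430), which makes an iron chelator, had 1.56 under mannitol and 9.81 in control. The median of 1.44 rests on these 4 genes and was negative with lower limits on FPKM. Of 5 ion transport genes 4 rose (median 1.19), among them the vacuolar exchanger NHX2 (AT3G05030) at 17 FPKM under mannitol and 5.88 in control and the outward potassium channel GORK (AT5G37500) at 11.4 under mannitol and 4.42 in control.

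Redox and detoxification genes rose in 12 of 17 cases and fell in 1 (median 1.26, and 0.30 under ABA). GSTF6 (AT1G02930), a glutathione transferase, had 1641 FPKM under mannitol, 138 in control and 289 under ABA. GSTF7 (AT1G02920), its neighbour and close copy, had 829 FPKM under mannitol, 81.6 in control and 18.8 under ABA, where it fell. The ascorbate peroxidase APX1 (AT1G07890) had 1956 FPKM under mannitol and 693 in control. Of 12 heat shock genes 8 rose (median 1.44, and 3.82 under ABA). ATHSP22.0 (AT4G10250), a small chaperone of the endoplasmic reticulum, had 40.9 FPKM under mannitol, 0.435 in control and 186 under ABA. Of 7 clock genes 4 rose and 1 fell (median 0.88), with PRR7 (AT5G02810) at 5.13 FPKM under mannitol and 0.940 in control and RVE1 (AT5G17300) at 5.14 under mannitol and 16.9 in control.

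Setting the wild-type response beside that of the duodecuple line asks how much of it was also called where 12 of the ABA receptors are mutated. The 2 comparisons have separate controls. Of the 1755 risen genes 828 were called higher by the authors in the duodecuple line too (47.2%, and 73.6% of its 1125), against 24.5% of all 4589 called higher there. Of the 1739 fallen genes 685 were also called lower (39.4%, and 64.1% of its 1068), against 23.3%. The median log2 ratio in the duodecuple line was 0.87 over the risen genes and -0.78 over the fallen genes. The difference between the responses of the lines was not tested, since no replicate values are in the files.

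The list medians of the lines were close for some lists and apart for others. LEA and dehydration genes had 3.63 in the wild type and 0.85 in the duodecuple line, with 9 of its 18 genes called higher, and clade A phosphatases had 2.19 in the wild type and 0.42 in the duodecuple line. Photosystem genes had -1.48 in the wild type and -0.42 in the duodecuple line, where none of the 21 was called, and Calvin cycle genes had -2.31 in the wild type and -0.79 in the duodecuple line. Aquaporins had -1.48 in the wild type and -1.50 in the duodecuple line. Cytokinin genes had -1.68 in the wild type and -1.44 in the duodecuple line, and cell division genes had -0.97 in the wild type and -1.05 in the duodecuple line. Redox genes had 1.26 in the wild type and 1.3 in the duodecuple line. Camalexin and indole glucosinolate genes had 1.12 in the wild type and 1.23 in the duodecuple line. Jasmonate genes had 1.18 in the wild type and 2.59 in the duodecuple line, where 20 of 20 rose. Single genes show the same spread: GPT2 had 119 FPKM under mannitol and 1.91 in control in the duodecuple line, close to the wild-type values, while SAG29 had 1.49 under mannitol and 0.357 in control there. Both were called higher in the duodecuple line, SAG29 at a low level.

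**Figure D5:**
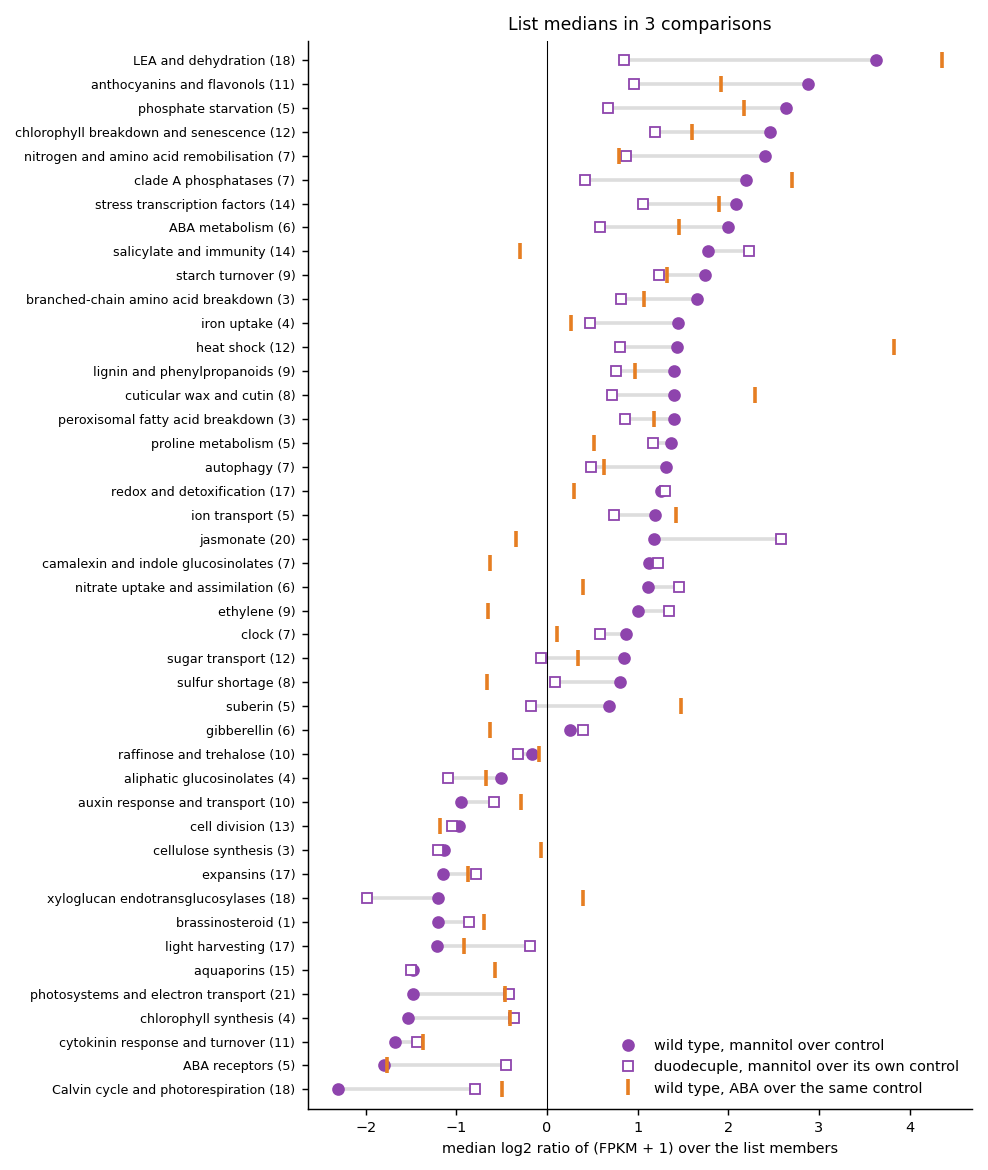
For each gene list the median log2 ratio is shown for wild-type mannitol over control (filled circles), duodecuple mannitol over its own control (open squares) and wild-type ABA over the same wild-type control (orange bars), over the genes that reached 5 FPKM in the wild type. For aquaporins the mannitol medians are -1.48 in the wild type and -1.50 in the duodecuple line, for LEA and dehydration genes 3.63 in the wild type and 0.85 in the duodecuple line, and the wild-type comparisons share their control.

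Opposite calls were few, 43 genes that rose in the wild type and fell in the duodecuple line and 18 the other way. GLYI4 (AT1G15380), a glyoxalase family protein, had 177 FPKM under mannitol and 32.8 in control in the wild type, and 7.52 under mannitol and 19.5 in control in the duodecuple line. XTH25 (AT5G57550) had 45.9 FPKM under mannitol and 10.096 in control in the wild type, and 0.467 under mannitol and 2.2 in control in the duodecuple line. AT2G34610 had 28.9 FPKM under mannitol and 7.69 in control in the wild type, and 1.27 under mannitol and 7.18 in control in the duodecuple line. Root hair markers, 7 of 10 risen in the wild type, had a summed level of 25.5 FPKM under mannitol and 77.6 in control in the duodecuple line. The PDF1 defensins went the other way: PDF1.2 had 2387 FPKM under mannitol and 412 in control in the duodecuple line, and PDF1.3 had 1130 under mannitol and 209 in control there. AT3G23550, a MATE-type efflux carrier, had 4.14 FPKM under mannitol and 40.4 in control in the wild type, and 96.9 under mannitol and 45.6 in control in the duodecuple line.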

How the data were processed

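RNA was sequenced from whole seedlings, with 3 samples for each of 6 groups, which follow GEO's labels. The tools listed in the submitters' processing notes are TopHat, Cufflinks and Cuffdiff with the TAIR10 build, and their versions and settings are not given in the sources used here. The deposited table holds 1 value per group that the authors made from the 3 samples, read here as FPKM, the unit those tools write, since no unit stands in the header. Beside these values the authors deposited, per comparison, a log2 ratio and whether they called the gene changed, without saying by which rule. The deposited log2 ratio equalled that of the group values within 1.36e-05 where both were above 0, and 1 called gene was under 2-fold apart. The number of samples behind each value is known, but their depth and spread are not, so neither errors nor p-values could be given, and the planned fits by sample could not be made. The labels do not say whether the 3 samples came from separate cultures.

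The genes kept reached 5 FPKM in the wild-type mannitol or control group, 1 FPKM was added, and the log2 ratio of mannitol over control was taken. The same limit would keep 4569 genes in the duodecuple line. Symbols came from a RefSeq gene table of TAIR10.1, which held 6726 of the 6740 identifiers. Motifs were counted on both strands in the 250 bases before each annotated gene start. Named genes are the 20 largest rises and 20 largest falls by log2 ratio, the 10 largest differences in FPKM per direction, up to 6 genes of each list with called genes and larger ratios before others, all clade A phosphatases, 5 per direction for each kind of agreement with the duodecuple line, and 3 genes on each side of the limit, from which the text takes most but not all. The cell type and reference genes named, ACT2, TUB4 and GC1, come from the marker lists. Members, lists and rules were chosen with earlier results of these data known. The alternatives were pseudocounts of 0.1 and 5 FPKM, limits of 1 and 20 FPKM or none, a 4-fold limit, a stricter call and centring on reference genes. Counting at 2-fold and the motif search were tested on simulated data. Python 3.11.15, numpy 2.4.6, pandas 2.3.3 and matplotlib 3.10.9 were used.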

Additional observations from a re-analysis of the deposited data

How the results depend on the processing

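No paired analysis was possible because the table holds 1 value per group, and for the same reason leaving out each replicate in turn was not run. The counts at 2-fold stayed within 1.5 times the reported ones with 0.1 or 5 FPKM added and with limits of 1 or 20 FPKM or none. With a 4-fold limit 490 genes were higher and 341 lower. Requiring a call and a 2-fold ratio with 5 FPKM added left 1144 higher and 1047 lower, and a limit of 20 FPKM left 1128 called higher and 1102 called lower. Centring on the 2 reference genes, applied to single counts as planned and to list medians after seeing the data, left 308 genes 2-fold lower and turned 4 list medians positive: raffinose and trehalose to 0.91, cell division to 0.10, auxin to 0.12 and aliphatic glucosinolates to 0.56. The iron median became -0.61 with a limit of 1 FPKM and -0.54 with none, and the gibberellin median became -0.40 with a limit of 1 FPKM and -0.046 with none, since the lower limits bring in further low genes. With 0.1 FPKM added 38 of the named genes' log2 ratios moved by more than 1.5-fold, and with 5 FPKM added 85 did, without a change of sign in either case. What precision the unknown depth gives to values near 5 FPKM cannot be said.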

Other observations

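Grouping the 4589 genes by the description in the annotation gave 44 families of 10 genes or more, and those named here were chosen after their values were seen. All 12 pectin lyase-like genes, whose relatives cut or modify pectin in the cell wall, fell (median log2 ratio -2.17). AT4G24780 had 7.12 FPKM under mannitol and 58.7 in control, and PMR6 (AT3G54920) had 27.9 under mannitol and 124 in control. Of 22 SAUR-like genes, short auxin-induced genes tied to cell elongation, 13 fell and 2 rose (median -1.92). AT4G34760 had 4.61 FPKM under mannitol and 72.0 in control, while SAUR36 (AT2G45210) had 35.6 under mannitol and 13.3 in control. The family median in the duodecuple line was -0.80 for the pectin lyase-like genes and -0.51 for the SAUR-like genes, against its own control. The lipid-transfer superfamily was divided, with 13 of 45 genes risen and 19 fallen, log2 ratios of -4.89 to 6.59, and a median of -0.64 that became 0.43 with ratios centred on the reference genes.

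Of 10 VQ motif genes, whose products bind WRKY factors, 8 rose and none fell (median 1.4, and -0.22 under ABA against the same control). AT1G78410 had 14.6 FPKM under mannitol and 0.878 in control. Of 13 calcium-binding EF-hand genes 9 rose and 1 fell (median 1.17, and 0.01 under ABA), with AT3G29000 at 26.2 FPKM under mannitol and 2.11 in control. Of 12 berberine-type oxidase genes 7 rose and 1 fell (median 1.51), with AT1G26420 at 19.8 FPKM under mannitol and 0.606 in control. Of 19 heavy metal transport genes 10 rose and 5 fell (median 1.67, and -0.06 in the duodecuple line), with AT2G35730 at 21.3 FPKM under mannitol and 1.74 in control. The 5 FPKM limit bears on these families as on the gene lists. AT1G78410, AT3G29000, AT1G26420 and AT2G35730 were under 5 FPKM in control and entered only by being higher under mannitol. Values under ABA and in the duodecuple line played no part in that limit, so the medians cannot be compared evenly. For 554 of the genes no description was given.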
